A study of Mus musculus with 8 samples.

Results

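A list of 41 genes of myeloid cells and of leukocytes in general was followed in RNA sequenced from isolated mouse pancreatic islets. Members were taken by gene symbol from the deposited table of knockout over wild-type islets with cytokines, B-lineage genes were left out, and 39 of the 41 were found among the 16333 genes. Itgam and Was are not analysed here. The symbols hold more than myeloid genes: Lck, Il7r, Il2rg and Tcf7 are best known from lymphocytes, and the list is therefore called leukocyte genes below.

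Islets came from adult mice in which NFATc2, a transcription factor activated by calcineurin, had been removed by tamoxifen in cells that express insulin (NFATc2βKO, called knockout), and from wild-type mice given tamoxifen without losing the gene. The promoter that drives the recombinase is not named, and leukocytes do not express insulin, so leukocytes of the knockout mice are outside the cells the labels say were targeted. After a night in 5.5 mM glucose, islets of both genotypes were kept for 2 h either untreated or in 11.0 mM glucose with IL1β (5 ng/mL), TNFα (10 ng/mL) and IFNγ (50 ng/mL), so cytokines and raised glucose came together. Each of the 4 groups held 2 libraries. The strain label is Agouti/C57BL6 in all of them, while the protocol names C57BL/6 mice of a commercial supplier beside the transgenic line. A difference of strain or supplier between the genotypes therefore cannot be told apart from the deletion.

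Islets contain resident macrophages, which take up secretory material, present antigen on MHC class II and carry the receptor for colony-stimulating factor 1. They produce C1q, the recognition molecule of the classical complement pathway, and lysosomal enzymes, and on activation a membrane oxidase makes superoxide from its subunits Cybb and Ncf1. Genes such as Ptprc, Rac2 and Coro1a are expressed by nearly all white blood cells, lymphocytes included, so they mark leukocytes without telling 1 kind from another.

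Reads per library, recovered from the authors' deposited group means, numbered 14679059 to 27063111. They leave out 14 abundant genes, among them Ins1, Ins2, Gcg, Chga and Malat1, which held 18.3% to 19% of the deposited mean counts of a group and whose reads could not be recovered. In every group 4 Y-linked genes marked 1 library as female and 1 as male, and values are given female before male. Libraries of the same sex within a genotype were taken as cultures of the same preparation, but the labels do not say whether a preparation was 1 mouse or a pool. Nfatc2 itself stood at 842 to 1167 normalized counts (reads divided by the library's size factor) in knockout and 1144 to 1646 in wild-type libraries, and neither genotype comparison of it passed the threshold in the authors' deposited table (FDR 0.903 untreated, log2 -0.49, and 0.474 with cytokines, log2 -0.56). A limma fit with sex as a block called it lower with cytokines (adjusted p 0.0368, log2 -0.54) and not untreated (adjusted p 0.0648, log2 -0.50). The endocrine transcription factor Pdx1 held 4039.8 to 4517 normalized counts in all 8 libraries. Of 11 islet endocrine genes, 0 were called in either genotype comparison, but not all were level. The hormone gene Ppy was called lower with cytokines in knockout islets (FDR 0.00048, log2 -0.84, SE 0.16) in the authors' deposited table. Untreated, Ppy stood at 0.81 (FDR 0.0942, SE 0.24) in knockout over wild-type islets.

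Leukocyte genes were higher in knockout than in wild-type islets, and most so after cytokines. Summed over the 39 genes, the libraries held 5899.7 and 6652 normalized counts in untreated wild-type islets, 7220 and 6364 in wild-type islets with cytokines, 9921 and 8927 in untreated knockout islets and 12131 and 13236 in knockout islets with cytokines. All knockout libraries lay above all wild-type libraries in this sum. It was 0.0302% to 0.0662% of the recovered normalized counts of a library, and 0.0258% to 0.052% of a group's deposited mean counts with the 14 unrecovered genes included. In bulk RNA more or fewer cells of a type and more or less RNA per cell cannot be told apart. For 28 of the 39 genes all 4 knockout libraries were above all 4 wild-type libraries, against 5.38% of all genes. For 24 of the 39 both knockout libraries with cytokines were above the 6 other libraries, against 4.61% of all genes.

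**Figure D1:**
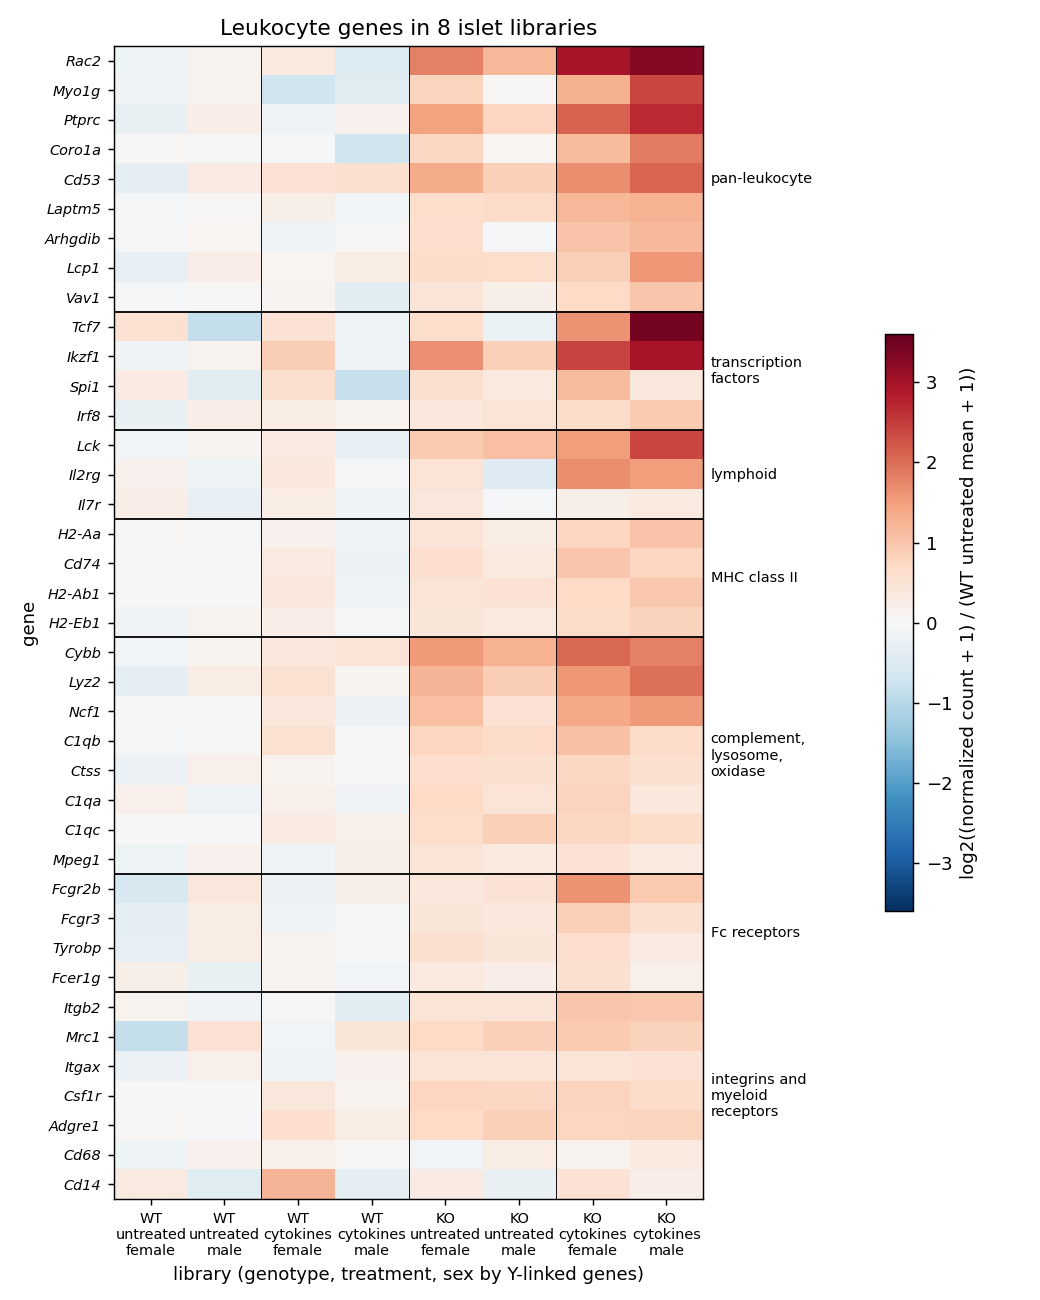
Colour gives the log2 ratio of each of the 39 genes (rows, grouped by role) to its mean in untreated wild-type islets, with 1 added to both, in each of the 8 libraries (columns). Knockout columns are mostly red, with the deepest red in pan-leukocyte, transcription-factor and lymphoid rows after cytokines. Among complement, Fc-receptor and integrin rows, both treated knockout libraries exceed both untreated ones for Cybb, Lyz2, Ncf1, Fcgr2b, Fcgr3 and Itgb2. Most other rows of these groups look much alike in untreated and treated knockout columns.

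With cytokines, 15 of the 39 genes were called higher in knockout islets in the authors' deposited table (FDR below 0.05, Benjamini-Hochberg over all genes), where 0.814% of all genes were called higher. None of the 39 was called lower, against 0.184% of all genes, and the unadjusted p was below 0.05 for 0 of them in that direction (2.24% of all genes) and for 30 in the higher direction (3.64%). The log2 fold change was positive for 38 of 39, all but Cd14 (49.2% of all genes), with a median of 0.81 against -0.0032 over all genes in the authors' deposited table. Both knockout libraries lay above both wild-type libraries for 35 of the 39 (14.7% of all genes). A limma fit of recovered reads that adjusts for sex called 17 of the 39, all higher (2.49% of all genes higher, 1.27% lower). Between the female libraries the median log2 difference over the 39 was 0.68, and between the male libraries 1.13.

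Untreated, 2 of the 39, Cybb and Lyz2, were called higher in knockout islets in the authors' deposited table, where 0.355% of all genes were called higher and 0.0551% lower. All 39 log2 fold changes were positive (49% of all genes), from 0.05 to 1.59 with a median of 0.49 against -0.0040 over all genes in the authors' deposited table. The unadjusted p was below 0.05 for 18 of the 39, all higher (3.37% of all genes, and 1.52% lower), and both knockout libraries lay above both wild-type libraries for 31 (18.6% of all genes). The untreated and the cytokine-treated libraries of a genotype share their preparations, so the genotype comparisons with and without cytokines are not independent of each other. Whether the authors' fit allowed for shared preparations was not given in the sources used here.

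**Figure D2:**
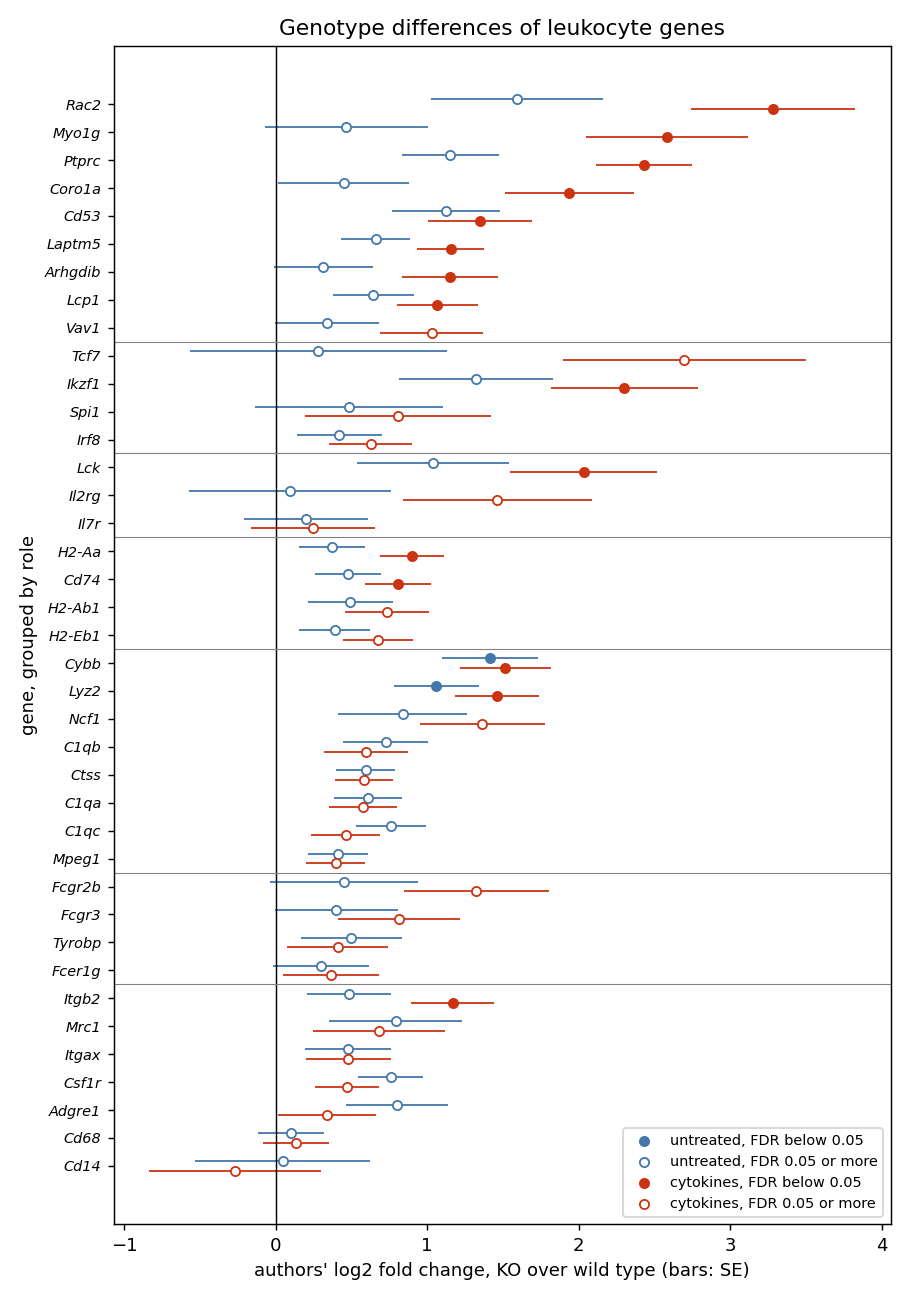
Points are the authors' log2 fold changes of knockout over wild type for the 39 genes, untreated (blue) and with cytokines (red), with bars of 1 SE and filled symbols for an FDR below 0.05. Red points lie to the right of blue points in the upper rows (pan-leukocyte genes), where 8 of 9 are filled. Red and blue bars overlap in the complement and integrin rows below, except for Itgb2.

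Most of the calls with cytokines were pan-leukocyte genes of the surface and of actin signalling. Of the 9 measured, 8 were called higher in knockout than wild-type islets with cytokines and 0 untreated. Log2 fold changes were positive for all 9 in both conditions, with medians of 1.35 with cytokines and 0.65 untreated in the authors' deposited table. In all 9 the male knockout library with cytokines was the highest of the 8 libraries. Ptprc, which encodes the leukocyte phosphatase CD45, held 139.6 and 198 in untreated wild-type islets, 151 and 188 in wild-type islets with cytokines, 466 and 288 in untreated knockout islets and 742 and 1089 in knockout islets with cytokines (normalized counts). Every knockout library exceeded every wild-type library, and both treated knockout libraries exceeded both untreated ones. Ptprc was 5.39-fold higher in knockout islets with cytokines in the authors' deposited table (FDR 8.4e-11, log2 2.43, SE 0.32), and its untreated difference was short of the threshold (FDR 0.0708, log2 1.15, SE 0.32).

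Rac2, the Rac GTPase of blood cells, was at 49.9 and 31.8 in untreated and 112 and 142 in cytokine-treated knockout islets, against 12.0 and 14.9 in untreated and 17.4 and 9.16 in cytokine-treated wild-type islets. The wild-type libraries rest on 9 to 16 reads each, and the highest wild-type value (17.4) was well under the lowest knockout value (31.8). Its treated fold difference was 9.73 (FDR 1.8e-06, log2 3.28, SE 0.54) in the authors' deposited table, the largest log2 value of the 39 genes, and untreated it stood at 1.59 (FDR 0.344, SE 0.57) in the authors' deposited table. Myo1g, a myosin of the plasma membrane of blood cells, held 33.2 and 40.1 (wild type, untreated), 21.7 and 26.7 (wild type, cytokines), 64.1 and 37.7 (knockout, untreated) and 91.3 and 198 (knockout, cytokines). In untreated islets the male knockout library lay within the wild-type range, and with cytokines the male value was far above the female one. Myo1g was higher with cytokines by 2.58 (FDR 0.00066, SE 0.53) on the log2 scale in the authors' deposited table. Coro1a, an actin-binding protein that leukocytes need for migration and survival, held 69.1 and 65.3 (wild type, untreated), 64.1 and 40.8 (wild type, cytokines), 113 and 71.0 (knockout, untreated) and 149.7 and 249 (knockout, cytokines). Its wild-type libraries reached at most 69.1, just under the lowest knockout library. Coro1a was higher with cytokines (FDR 0.00175, log2 1.94, SE 0.43) in the authors' deposited table.

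Cd53, a tetraspanin of leukocytes, stood at 49.2 and 77.9 in untreated wild-type islets, 92.3 and 95.0 in wild-type islets with cytokines, 162 and 117 in untreated knockout islets and 203 and 273 in knockout islets with cytokines. Every knockout library was above every wild-type library, already without cytokines. Cd53 passed the threshold with cytokines (FDR 0.0136, log2 1.35, SE 0.34) and not untreated (FDR 0.19, log2 1.12, SE 0.36) in the authors' deposited table. Laptm5, a lysosomal membrane protein that limits antigen-receptor signalling, held 146 and 155 (wild type, untreated), 176 and 141 (wild type, cytokines), 233 and 243 (knockout, untreated) and 345 and 357 (knockout, cytokines). Its libraries agreed closely within each group, with 351 ± 8.76 against 158 ± 24.8 with cytokines (mean ± SD, n = 2). Laptm5 was 2.23-fold higher with cytokines in the authors' deposited table (FDR 0.00011, log2 1.16, SE 0.22). Lcp1, the actin-bundling protein L-plastin, held 342 and 491 (wild type, untreated), 439.8 and 506 (wild type, cytokines), 658 and 645 (knockout, untreated) and 759 and 1220.1 (knockout, cytokines). The male knockout library with cytokines stood well apart from the female one, and all knockout libraries were above all wild-type libraries. Lcp1 was higher with cytokines by 1.07 (FDR 0.011, SE 0.27) on the log2 scale in the authors' deposited table.

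Arhgdib, a regulator of small GTPases in blood cells, held 91.7 and 99.7 (wild type, untreated), 88.0 and 98.3 (wild type, cytokines), 146 and 93.2 (knockout, untreated) and 198 and 216 (knockout, cytokines). Untreated, the male knockout library lay among the wild-type libraries, and only the treated knockout libraries stood clear of them together. Arhgdib passed the threshold with cytokines (FDR 0.036, log2 1.15, SE 0.32) in the authors' deposited table. Vav1, a signalling protein that acts behind antigen receptors, held 73.1 and 79.1 (wild type, untreated), 81.5 and 57.5 (wild type, cytokines), 105 and 88.0 (knockout, untreated) and 127 and 155 (knockout, cytokines). All knockout libraries were above all wild-type libraries, yet the fit left it uncalled in both comparisons. Its log2 fold changes were 1.03 (FDR 0.145, SE 0.34) with cytokines and 0.34 (FDR 1, SE 0.34) untreated in the authors' deposited table.

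Vav1 shows a short run of letters that many promoters of leukocyte genes carry, the core GAGGAAG read by PU.1, the factor encoded by the member Spi1. The 250 bases upstream of its annotated start are given for that reason, from RefSeq on GRCm38.p6, chr17:57278850-57279099, plus strand, 5′ to 3′, with the core in capitals.
Vav1: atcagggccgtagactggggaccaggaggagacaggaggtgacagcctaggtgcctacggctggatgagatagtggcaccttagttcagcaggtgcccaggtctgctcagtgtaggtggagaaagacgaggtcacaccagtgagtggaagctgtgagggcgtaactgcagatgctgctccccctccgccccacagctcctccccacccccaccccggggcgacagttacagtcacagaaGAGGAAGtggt
The core starts 11 bases before the gene's start. Searched on both strands over such windows, GAGGAAG was found for 6 of the 29 measured members that have a window (C1qc, Fcgr3, Laptm5, Lck, Mrc1 and Vav1). That is 7 of their 39 windows or 17.9%, against 10.6% of all 32851 windows, and a match of letters is a description, not a binding site.

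Of the 4 measured transcription factors of blood cells, only Ikzf1 was called, and only with cytokines, and the median log2 fold changes were 1.55 with cytokines and 0.45 untreated in the authors' deposited table. Ikzf1, the lymphoid regulator Ikaros, held 26.6 and 32.1 in untreated wild-type islets, 55.4 and 26.7 in wild-type islets with cytokines, 93.5 and 54.0 in untreated knockout islets and 162 and 238 in knockout islets with cytokines. The treated wild-type female library (55.4) lay just above the untreated knockout male library (54.0), and the treated knockout libraries were clear of the rest. Ikzf1 was 4.93-fold higher with cytokines in the authors' deposited table (FDR 0.00086, log2 2.30, SE 0.48). Tcf7, which encodes TCF1, a regulator of T cells, held 19.9 and 6.88 (wild type, untreated), 19.5 and 11.7 (wild type, cytokines), 21.4 and 11.1 (knockout, untreated) and 43.1 and 157 (knockout, cytokines). The libraries other than the treated knockout ones held 6 to 24 reads, and 1 library, the treated knockout male, made most of the difference. Tcf7 stood at 2.70 (FDR 0.0696, SE 0.80) with cytokines in the authors' deposited table, short of the threshold.

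Irf8, a regulator of monocytes, dendritic cells and B cells, held 104 and 147 (wild type, untreated), 151 and 136 (wild type, cytokines), 163 and 173 (knockout, untreated) and 199 and 242 (knockout, cytokines). Knockout libraries were above wild-type libraries throughout, by less than for Ikzf1. The log2 fold change of Irf8 with cytokines was 0.63 (FDR 0.571, SE 0.28) in the authors' deposited table. Spi1, which encodes PU.1, ranged from 18.3 to 74.9 normalized counts, its genotypes overlapped with cytokines, and it was not called in either condition.

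Among the 4 lymphoid genes, in which Tcf7 is counted again, only Lck was called, with cytokines; their medians were 1.75 with cytokines and 0.24 untreated in the authors' deposited table. Lck, the kinase that starts T-cell receptor signalling and is also found in a subset of B cells, held 56.1 and 62.1 in untreated and 83.7 and 155 in cytokine-treated knockout islets, against 26.6 and 30.9 in untreated and 35.8 and 23.3 in cytokine-treated wild-type islets. Knockout libraries exceeded wild-type libraries in every pairing. Lck was 4.09-fold higher with cytokines in the authors' deposited table (FDR 0.00552, log2 2.03, SE 0.48). Il2rg, the shared chain of several interleukin receptors, held 17.3 and 13.8 (wild type, untreated), 20.6 and 15 (wild type, cytokines), 22.3 and 11.1 (knockout, untreated) and 52.0 and 45.9 (knockout, cytokines). Only the treated knockout libraries stood out, and each other library rests on 25 reads or fewer. Il2rg stood at 1.46 (FDR 0.526, SE 0.63) with cytokines in the authors' deposited table; 728 of its 2387 exonic bases are also assigned to the predicted gene Gm20489 on the same strand. Il7r, the receptor for interleukin 7, ranged from 50.4 to 82.8 with overlap between genotypes in both conditions and was not called.

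MHC class II genes, which present peptides on macrophages, dendritic cells and B cells, were higher by smaller steps and with little spread. All 4 had every knockout library above every wild-type library. Of the 4, Cd74 and H2-Aa were called higher in knockout than wild-type islets with cytokines and 0 were called untreated. The medians were 0.77 with cytokines and 0.43 untreated in the authors' deposited table. Members of this family are alike in sequence, and how reads shared between them were counted was not given in the sources used here.

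The promoters of class II genes share conserved boxes, among them the Y box with the letters CTGATTGG, bound by the general factor NF-Y. The 250 bases upstream of H2-Aa (chr17:34287824-34288073, minus strand) and of H2-Eb1 (chr17:34305617-34305866, plus strand) are shown because they hold these exact letters. They are from RefSeq on GRCm38.p6, 5′ to 3′, with the Y box in capitals.
H2-Aa: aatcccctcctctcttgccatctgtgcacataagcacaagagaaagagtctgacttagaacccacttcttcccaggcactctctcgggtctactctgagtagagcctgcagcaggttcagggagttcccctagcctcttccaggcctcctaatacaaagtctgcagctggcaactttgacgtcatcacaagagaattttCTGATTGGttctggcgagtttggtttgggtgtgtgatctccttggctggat
H2-Eb1: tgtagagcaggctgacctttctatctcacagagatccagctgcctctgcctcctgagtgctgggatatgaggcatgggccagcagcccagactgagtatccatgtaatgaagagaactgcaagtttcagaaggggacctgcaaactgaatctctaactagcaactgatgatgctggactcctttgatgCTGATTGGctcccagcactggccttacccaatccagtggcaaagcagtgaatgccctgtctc
The box starts 51 bases before the start of H2-Aa and 62 before that of H2-Eb1. On either strand CTGATTGG was found for 3 of the 29 members with a window (H2-Aa, H2-Eb1 and Irf8), in 3 of 39 windows or 7.69%, against 3.83% of all windows. Cd74 and H2-Ab1, the other class II members, are not among those with a match, though they too were higher in every knockout library.

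Cd74, the invariant chain that guides class II molecules, held 609 and 598 in untreated wild-type islets, 760.2 and 517 in wild-type islets with cytokines, 912 and 768 in untreated knockout islets and 1205 and 1029 in knockout islets with cytokines. The treated wild-type female library (760.2) came closest to the knockout range, whose lowest value was 768. Cd74 was 1.75-fold higher with cytokines in the authors' deposited table (FDR 0.0267, log2 0.81, SE 0.22). H2-Aa, an alpha chain, held 279 and 261 (wild type, untreated), 302 and 245 (wild type, cytokines), 373 and 327 (knockout, untreated) and 459 and 556 (knockout, cytokines). Its order of groups was that of Cd74, with the treated knockout libraries on top. H2-Aa was 1.86-fold higher with cytokines in the authors' deposited table (FDR 0.00509, log2 0.90, SE 0.21). H2-Ab1, the beta chain that pairs with it, held 133 and 133 (wild type, untreated), 173 and 118 (wild type, cytokines), 184 and 190.0 (knockout, untreated) and 219 and 262 (knockout, cytokines). The untreated wild-type libraries were nearly equal, and the treated knockout libraries were the highest. H2-Ab1 was not called with cytokines (FDR 0.298, log2 0.74, SE 0.28) in the authors' deposited table. H2-Eb1, a beta chain of the second class II molecule, held 167 and 201 (wild type, untreated), 218 and 174 (wild type, cytokines), 247 and 236 (knockout, untreated) and 296 and 329 (knockout, cytokines). The groups kept the same order without overlap of genotypes. H2-Eb1 was not called with cytokines either (FDR 0.185, log2 0.68, SE 0.23) in the authors' deposited table.

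Complement, lysosome and oxidase genes were the group with the clearest untreated difference. All 8 measured had every knockout library above every wild-type library, 2 (Cybb and Lyz2) were called in each genotype comparison, and the medians were 0.74 untreated and 0.59 with cytokines in the authors' deposited table. Cybb, the catalytic subunit of the phagocyte oxidase, held 49.2 and 56.2 in untreated wild-type islets, 69.5 and 73.3 in wild-type islets with cytokines, 156 and 126 in untreated knockout islets and 222 and 188 in knockout islets with cytokines. Wild-type libraries reached 73.3 at most and knockout libraries began at 126. Cybb was 2.67-fold higher untreated (FDR 0.00381, log2 1.42, SE 0.32) and 2.86-fold higher with cytokines (FDR 0.00022, log2 1.52, SE 0.30) in the authors' deposited table for each condition. Ncf1, a cytosolic subunit of the same oxidase, held 39.9 and 41.3 (wild type, untreated), 53.2 and 35.0 (wild type, cytokines), 86.3 and 59.1 (knockout, untreated) and 105 and 119.7 (knockout, cytokines). Knockout libraries were the higher ones, with the untreated male nearest to wild type. Ncf1 was short of the threshold with cytokines (FDR 0.0747, log2 1.36, SE 0.41) in the authors' deposited table; 408 of its 3663 exonic bases overlap Gtf2ird2 on the opposite strand.

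Lyz2, the lysozyme of macrophages and granulocytes, held 254 and 389.7 in untreated wild-type islets, 471 and 343 in wild-type islets with cytokines, 755 and 590.0 in untreated knockout islets and 955 and 1282 in knockout islets with cytokines. The treated male knockout library was the highest and the untreated wild-type female the lowest. Lyz2 was 2.09-fold higher untreated (FDR 0.0408, log2 1.06, SE 0.28) and 2.75-fold higher with cytokines (FDR 9.9e-05, log2 1.46, SE 0.28) in the authors' deposited table for each condition. Its near copy Lyz1 shares sequence with it, so reads of the pair may not be fully separated. Ctss, cathepsin S, which trims the class II invariant chain, held 329.7 and 440.1 (wild type, untreated), 420.3 and 391 (wild type, cytokines), 588 and 577 (knockout, untreated) and 641 and 575 (knockout, cytokines). Knockout libraries were above wild-type libraries and hardly differed between treatments. Ctss was not called untreated (FDR 0.22, log2 0.59, SE 0.19) or with cytokines (FDR 0.149, log2 0.58, SE 0.19) in the authors' deposited table. Mpeg1, the pore-forming perforin-2 of macrophages, held 606 and 771 (wild type, untreated), 622 and 798 (wild type, cytokines), 949 and 885 (knockout, untreated) and 996 and 877 (knockout, cytokines). Its groups were close, with the lowest knockout library at 877 and the highest wild-type library at 798. Mpeg1 stood at 0.41 (FDR 0.903, SE 0.20) untreated in the authors' deposited table.

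The C1q genes C1qa, C1qc and C1qb lie next to each other on chromosome 4 (136880129 to 136898803, minus strand, GRCm38) and encode the chains of 1 protein. C1qa held 669 and 519 in untreated wild-type islets, 668 and 548 in wild-type islets with cytokines, 982 and 828 in untreated knockout islets and 1042 and 771 in knockout islets with cytokines. Both genotypes were flat across treatment, and the female library was the higher one in each group. C1qa stood at 0.61 (FDR 0.414, SE 0.23) untreated in the authors' deposited table. C1qb held 145 and 154 (wild type, untreated), 217 and 147 (wild type, cytokines), 254 and 240.3 (knockout, untreated) and 311 and 240.3 (knockout, cytokines), and C1qb was also uncalled (FDR 0.473, log2 0.73, SE 0.28) in untreated islets in the authors' deposited table. Its treated wild-type female library (217) came nearest to the knockout libraries. C1qc held 141 and 144 (wild type, untreated), 175 and 162 (wild type, cytokines), 223 and 261 (knockout, untreated) and 239 and 225 (knockout, cytokines). Here the untreated wild-type libraries were close together and all knockout libraries lay well above them. C1qc stood at 0.76 (FDR 0.132, SE 0.23) untreated in the authors' deposited table. A limma fit of the recovered reads that pairs libraries by sex called C1qa (adjusted p 0.0179) and C1qc (adjusted p 0.0384) higher in untreated knockout islets, along with Cybb and Csf1r (1.53% of all genes were called higher and 0.564% lower). That fit counts libraries of 1 preparation as independent, which makes its p-values too small. It did not call Lyz2, so only Cybb was shared between its 4 calls and the 2 of the authors.

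Fc receptors and their signalling adaptors were higher in knockout islets by amounts that did not pass the threshold, with 0 of 4 called in any comparison and medians of 0.43 untreated and 0.61 with cytokines in the authors' deposited table. All 4 had their highest value in the female knockout library with cytokines, the library in which no pan-leukocyte gene peaked. Fcgr2b, the inhibitory receptor for IgG on B cells and macrophages, held 29.2 and 59.6 in untreated wild-type islets, 38.0 and 51.7 in wild-type islets with cytokines, 57.9 and 64.3 in untreated knockout islets and 139.6 and 86.6 in knockout islets with cytokines. The treated knockout libraries were on top, while the untreated knockout libraries lay near the upper wild-type value. Fcgr2b stood at 1.32 (FDR 0.252, SE 0.48) with cytokines in the authors' deposited table. Fcgr3, an activating IgG receptor with closely related sequence, ranged from 38.6 to 88.8 with every knockout library above every wild-type library. Tyrobp, the adaptor DAP12 of macrophages and natural killer cells, ranged from 66.5 to 126 with the same separation. Fcer1g, the signalling chain of Fc receptors, ranged from 91.7 to 165, and its lowest knockout library lay within the wild-type range.

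Of the 7 measured integrins and myeloid surface receptors only Itgb2 was called, with cytokines, and the medians were 0.48 untreated and 0.47 with cytokines in the authors' deposited table. Itgb2, the beta chain of the leukocyte integrins, held 117 and 98.6 in untreated wild-type islets, 109 and 82.5 in wild-type islets with cytokines, 151 and 149 in untreated knockout islets and 216 and 212 in knockout islets with cytokines. The 2 libraries of each knockout group were almost equal, and no wild-type library reached them. Itgb2 was 2.25-fold higher with cytokines in the authors' deposited table (FDR 0.00472, log2 1.17, SE 0.27). Csf1r, the receptor on which tissue macrophages depend, held 182 and 182 (wild type, untreated), 240.0 and 197 (wild type, cytokines), 312 and 305 (knockout, untreated) and 317 and 288 (knockout, cytokines). Wild-type libraries with cytokines were above untreated ones, and knockout libraries were alike in both conditions. Csf1r stood at 0.76 (FDR 0.0791, SE 0.21) untreated and 0.47 (FDR 0.607, SE 0.21) with cytokines in the authors' deposited table, and the block fit called it in untreated islets (limma adjusted p 0.0249). Of its 5774 exonic bases 873 overlap Hmgxb3 on the opposite strand, and strand handling was not given in the sources used here.

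Adgre1, an adhesion receptor used as a marker of mature macrophages, held 96.1 and 108 in untreated and 100.2 and 103 in cytokine-treated knockout islets, against 59.8 and 57.3 in untreated and 90.1 and 70.8 in cytokine-treated wild-type islets. The 4 knockout libraries lay within a narrow band above the wild-type libraries. Adgre1 stood at 0.80 (FDR 0.651, SE 0.34) untreated in the authors' deposited table. The mannose receptor Mrc1 ranged from 51.8 to 181 and the integrin Itgax from 101 to 169, both with every knockout library above every wild-type library and neither called. Cd68, a lysosomal glycoprotein of macrophages, ranged from 363 to 524, with overlapping genotypes. Its log2 fold changes were 0.10 (FDR 1, SE 0.22) untreated and 0.13 (FDR 1, SE 0.22) with cytokines in the authors' deposited table. Cd14, a co-receptor for bacterial lipopolysaccharide, ranged from 44.7 to 143, and its highest value was in a wild-type library. It had the only negative genotype difference, -0.27 (FDR 1, SE 0.57) with cytokines in the authors' deposited table.

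Per kilobase of exon, averaged over the 8 libraries, levels ranged from 724 normalized counts for C1qa to 9.21 for Myo1g. Lyz2 (479), Cd74 (476), Ctss (365) and Cd68 (352) followed C1qa on this scale of levels per kilobase. The macrophage genes C1qa, Lyz2 and Ctss were thus at far higher levels per kilobase than Ptprc (22.3), Ikzf1 (14.9) or Rac2 (15.6), which had larger genotype differences with cytokines.

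Within the knockout islets, cytokine-treated libraries held more pan-leukocyte RNA than untreated ones, without a call. Positive log2 responses were found for 35 of the 39 genes (50.3% of all genes), and limma with the preparation as a block called 0 of the 39 (0.11% of all genes higher, 0.0123% lower). None of the 39 genes was called in the authors' deposited table for the knockout response (0.0367% of all genes were called higher and 0.00612% lower). The unadjusted p was below 0.05 for 14 genes, all higher with cytokines (0.937% of all genes, and 0.0796% lower), and both treated libraries were above both untreated ones for 24 (15.3% of all genes). These comparisons reuse the knockout libraries of the genotype comparisons. The median log2 fold change was 0.41 over the 39 genes, 0.82 over the 9 pan-leukocyte genes, 0.39 over the MHC class II genes, 0.11 over complement, lysosome and oxidase genes and 0.07 over integrins and myeloid receptors in the authors' deposited table. Ptprc had a log2 value of 1.33 (FDR 0.154, SE 0.34), Tcf7 of 2.31 (FDR 1, SE 0.81) and Rac2 of 1.63 (FDR 1, SE 0.57) in the authors' deposited table. The same log2 response was 0.00 for C1qa and -0.03 for Csf1r in the authors' deposited table, with SEs of 0.25 and 0.24.

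The change was larger in the male preparation for most pan-leukocyte genes. Over the 9, the median log2 difference of treated over untreated knockout libraries was 0.44 in the female and 1.22 in the male. For Laptm5 it was 0.56 in both. In untreated knockout islets the male library was above the female one for 1 of 9 of these genes, and after cytokines for 9 of 9. Over all genes the corresponding shares were 51.2% and 50.2%. In the female preparation Ptprc went from 466 to 742 and in the male from 288 to 1088.5, and Rac2 from 49.9 to 112 and from 31.8 to 142. Complement, lysosome and oxidase genes had the male library above the female one for 1 of 8 untreated and 2 of 8 with cytokines. The plots of 8 genes by preparation show this contrast between Ptprc or Rac2 and C1qa or Csf1r.

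**Figure D3:**
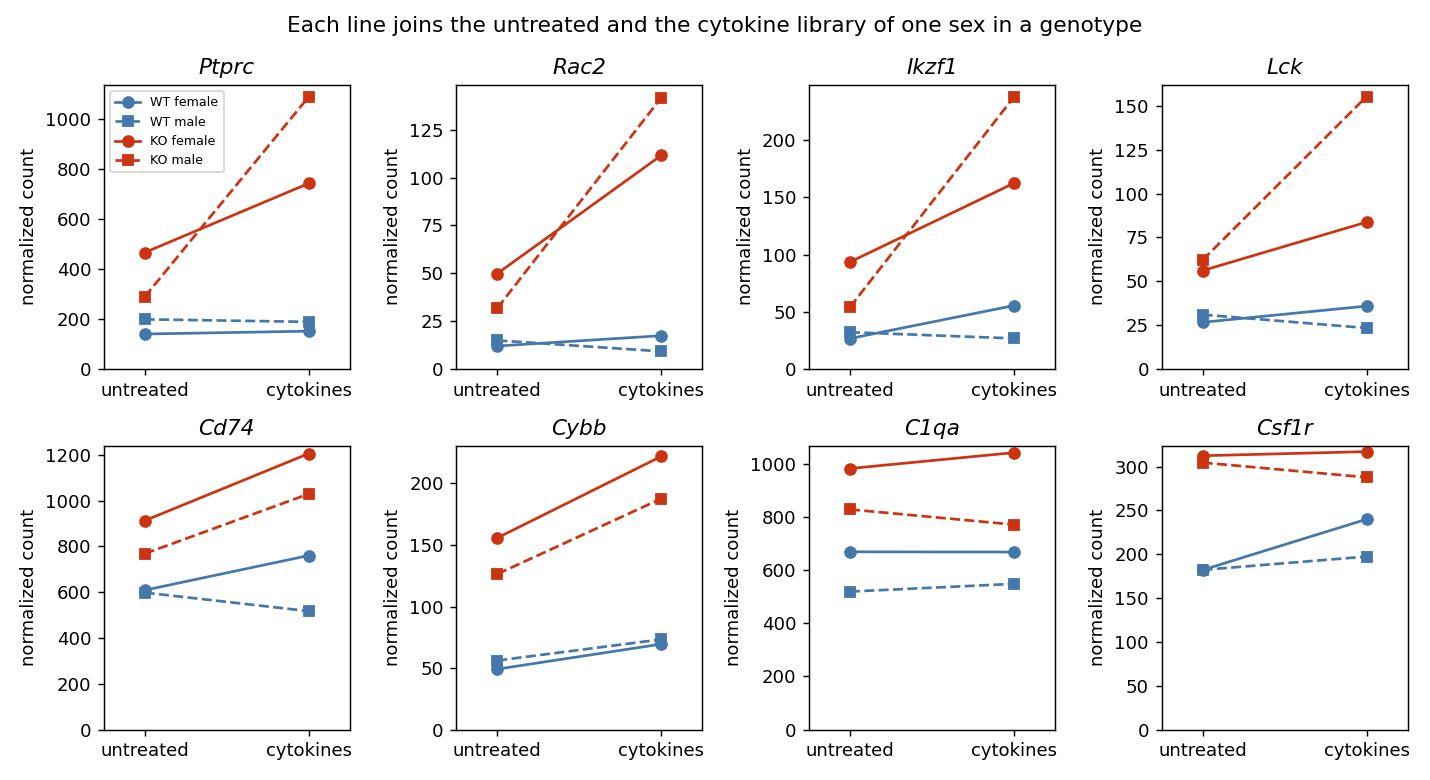
Normalized counts (vertical axis, from 0) of 8 genes in untreated and cytokine-treated islets, with 1 line for each sex in each genotype (knockout red, wild type blue; female solid, male dashed). The knockout lines of Ptprc, Rac2, Ikzf1 and Lck climb, most steeply in the male, while those of C1qa and Csf1r stay level above the wild-type lines.

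In wild-type islets leukocyte genes showed no common shift with cytokines. None of the 39 was called in the authors' deposited table (0.0122% of all genes were called higher and 0 lower), and 0 had an unadjusted p below 0.05, against 0.716% of all genes higher and 0.202% lower. Limma without a block called 0 of the 39 and 0 of all 16319 genes, and had 0 of the 39 at an unadjusted p below 0.05 (336 of all genes). With the preparation as a block it called 0 (0.123% of all genes higher, 0.0306% lower) and had 3 at an unadjusted p below 0.05. Of the 39 log2 responses 31 were positive (50.9% of all genes). The median log2 fold change was 0.08 in the authors' deposited table, and by preparation the median was 0.35 in the female and -0.11 in the male. Both treated libraries were above both untreated ones for 5 of the 39 (11.3% of all genes) and below them for 2, Coro1a and Myo1g (10.9% of all genes).

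Whether the response differed between genotypes was tested gene by gene, with a z test of the knockout minus the wild-type log2 response built from the authors' standard errors. None of the 39 passed after adjustment, nor did any of the 16333 genes, and 3 had an unadjusted p below 0.05 (0.22% of all genes): Ptprc (difference 1.32, SE 0.49), Myo1g (2.12, SE 0.86) and Coro1a (1.46, SE 0.68). With the preparation as a block, limma called 0 of the 39 and 0 of all 16319 genes. It gave 12 of the 39 at an unadjusted p below 0.05 (4.04% of all genes). The difference, knockout minus wild-type response, was positive for 29 of 39 genes, with a median of 0.33 over the 39 and of 0.86 over the pan-leukocyte genes. The response of both knockout preparations was above that of both wild-type preparations for 15 of 39 genes (16% of all genes). For 4, Itgb2, Coro1a, Myo1g and Arhgdib, both knockout preparations were higher and both wild-type preparations lower with cytokines (4.23% of all genes).

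Further leukocyte genes followed the same split. Of 23 other pan-leukocyte genes, 9 were called higher in knockout than wild-type islets with cytokines and 0 untreated. The medians were 1.48 with cytokines and 0.52 untreated in the authors' deposited table. Dock2, an activator of Rac in leukocytes, held 75.8 and 81.4 (wild type, untreated), 89.1 and 72.5 (wild type, cytokines), 168 and 122 (knockout, untreated) and 258 and 348 (knockout, cytokines). Knockout libraries were above wild-type libraries, most so with cytokines. Dock2 was higher with cytokines by 1.91 (FDR 1.6e-06, SE 0.31) on the log2 scale in the authors' deposited table. Cd52, a small surface glycoprotein mainly of lymphocytes, stood at 3.08 (FDR 2e-05, SE 0.55) and Cytip, a regulator of integrin adhesion, at 1.94 (FDR 0.00011, SE 0.37) with cytokines in the authors' deposited table. Of 20 other macrophage and monocyte genes 0 were called in either genotype comparison, with medians of 0.60 untreated and 0.50 with cytokines in the authors' deposited table. Ly6c2, listed with the macrophage and monocyte genes, had no read in any wild-type library. It held 126, 47.3, 143 and 4.25 normalized counts in the knockout libraries, untreated before cytokines. Its log2 fold changes were 8.57 (FDR 0.337, SE 3.05) untreated and 8.72 (FDR 0.21, SE 3.05) with cytokines in the authors' deposited table.

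Markers of B cells were also higher in knockout islets, and in their sum the knockout libraries stood in another order. The 14 measured of 20 B-cell genes summed to 242 to 449 normalized counts in the wild-type libraries, to 28408 and 7086 in untreated knockout libraries and to 45390.0 and 2824 in those with cytokines. The treated male knockout library, the highest in the sum of the 39 leukocyte genes, was thus the lowest knockout library in the B-cell sum. That order was not shared by Ms4a1 and Bank1, in which both treated knockout libraries were above both untreated ones. Of the 14, 6 were called higher untreated and 11 with cytokines, with medians of 2.59 and 4.95 in the authors' deposited table. Ms4a1, which encodes the B-cell surface protein CD20, held 2.66 and 0.0 in untreated wild-type islets, 3.26 and 0.833 in wild-type islets with cytokines, 33.8 and 19.96 in untreated knockout islets and 110.4 and 90.0 in knockout islets with cytokines. It was near 0 in wild type and its treated knockout libraries were both above the untreated ones. Bank1, a B-cell adaptor, held 13.3 and 3.44 (wild type, untreated), 1.09 and 3.33 (wild type, cytokines), 57.9 and 18.5 (knockout, untreated) and 113 and 119 (knockout, cytokines). Igkc, the immunoglobulin kappa constant region, held 7.98 and 10.3 (wild type, untreated), 44.5 and 5.0 (wild type, cytokines), 7936 and 2222 (knockout, untreated) and 12708 and 609 (knockout, cytokines), and in it the treated male knockout library was the lowest of the knockout libraries. The part of B cells in the higher pan-leukocyte, Ikzf1 and MHC class II values was not tested.

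Of 25 T-cell and natural killer genes 5 are in the tables, and the defining genes Cd3e, Cd3d, Cd4 and Cd8a are not analysed here. The 5 measured summed to between 1267 and 1556 normalized counts in all 8 libraries, with 0 called. Of 3 dendritic-cell genes only Ccr7 was called, while Fscn1 and Zbtb46 stood at 0.01 (FDR 1, SE 0.32) and 0.23 (FDR 1, SE 0.42) with cytokines and at -0.19 (FDR 1, SE 0.32) and -0.01 (FDR 1, SE 0.43) untreated in the authors' deposited table. Ccr7, the receptor that guides dendritic cells and naive lymphocytes to lymph nodes, held 6.65 and 2.29 (wild type, untreated), 6.52 and 1.67 (wild type, cytokines), 10.7 and 4.44 (knockout, untreated) and 29.2 and 178 (knockout, cytokines). Most of it was in the treated male knockout library. Ccr7 was called with cytokines (FDR 0.00283, log2 4.71, SE 1.07) in the authors' deposited table. Of the other class II pathway genes H2-Ob, a modulator of peptide loading in B cells, was called with cytokines (FDR 0.0087, log2 3.17, SE 0.78) in the authors' deposited table, 1 of 4 measured. No erythroid gene of 6 and 2 of 16 neutrophil and mast-cell genes (Lcn2 and Hdc) are in the tables.

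Exocrine and stromal content differed between preparations too. The 8 acinar genes summed to 58492 and 7045 (wild type, untreated), 26399 and 5147 (wild type, cytokines), 69260.2 and 29740 (knockout, untreated) and 118776 and 20755 (knockout, cytokines), so the female library was the higher one in every group and, within each sex, the knockout library was above the wild-type library in both conditions. The 8 stromal genes summed to 1949 and 1622 in untreated and to 10531 and 2177 in cytokine-treated wild-type islets. In knockout islets they summed to 10435 and 5404 untreated and to 13807 and 4910.2 after cytokines. Only the treated wild-type female library reached the knockout range. Untreated, the authors' fit called 1 of the 8 higher in knockout islets, Dcn (FDR 0.00605, log2 2.36, SE 0.54). The median log2 fold change of the 8 was 2.39. After cytokines 0 were called and their median was 0.83. The 10 endothelial genes went the other way, with 7076 to 9752 in wild-type and 4156 to 5649 in knockout libraries, and 5 of them were called lower in knockout than wild-type islets with cytokines in the authors' deposited table, among them Kdr (-1.08 (FDR 0.00066, SE 0.22)). The part of acinar, stromal or endothelial content in the leukocyte values was not tested.

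**Figure D4:**
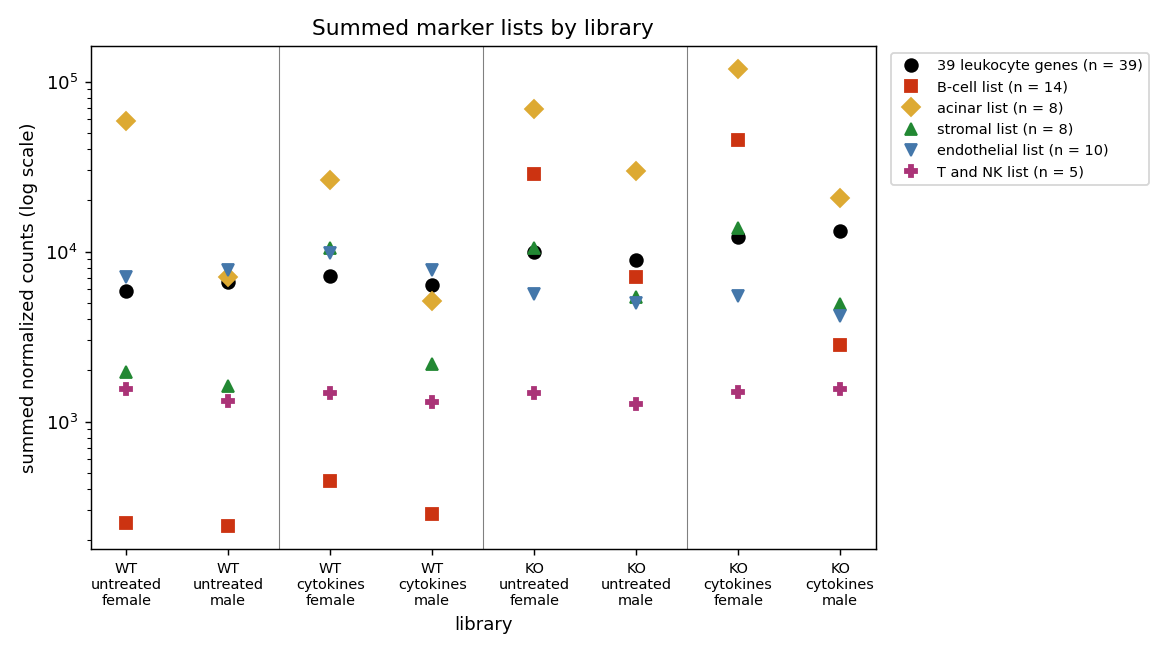
Summed normalized counts (log axis) of the 39 leukocyte genes and of 5 marker lists in each of the 8 libraries, with the number of genes summed in the legend. B-cell sums are 242 to 449 in wild-type and 2824 to 45390.0 in knockout libraries, leukocyte sums are 5899.7 to 7220 and 8927 to 13236, and the T and NK sums stay between 1267 and 1556.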

How the data were processed

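RNA of 8 islet libraries (2 per group) was analysed from 4 tables of the authors' own comparisons. HISAT2, HTSeq, DESeq2 and GRCm38 are named in the submitters' processing notes, without versions or roles, and how strand and multiply mapped reads were handled was not given in the sources used here. The deposited signal columns hold group means of size-factor normalized counts, and the deposited log2 fold changes and scores (Wald statistics) are the authors' model estimates. Deposited p-values match the scores, and deposited FDR values match a Benjamini-Hochberg adjustment over all 16333 genes. The lowest mean was 23.2, so low genes had been removed before deposit. In these tables the genotypes are KO and Mut, and Mut was taken as wild type, since the labels leave no other genotype.

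A gene was called at the authors' FDR below 0.05. The standard error was the log2 fold change over the score. Whole reads per library were recovered from the group means, each a sum of 2 whole numbers times fixed steps, for 16319 genes (99.9%), and the other 14 include the main islet hormones. Of these, 16103 had 1 solution in every group, and the sums were checked against the mean over all libraries. Recovered values are the normalized counts printed here. Steps were tested on simulated data. Alternatives used limma 3.58.1 in R 4.3.3 on log2 of the normalized count plus 1, with and without a block (preparation for cytokine comparisons, sex for genotype comparisons). All 39 genes may be named, those with an unadjusted p below 0.05 (at most 30, by smallest p) with every library's value, and from each other list at most 3 genes with the smallest p. The members and lists were chosen with earlier results of these data known. Positions and exon lengths are from the GRCm38 annotation. p-values measure the spread between these libraries, since separate mice are not stated.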

Additional observations from a re-analysis of the deposited data

Results flagged for a closer look

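For 4 leukocyte genes both knockout preparations were higher and both wild-type preparations lower with cytokines than untreated, against 4.23% of all genes. The knockout minus wild-type log2 response was 0.69 for Itgb2 (SE 0.43), 1.46 for Coro1a (SE 0.68), 2.12 for Myo1g (SE 0.86) and 0.86 for Arhgdib (SE 0.49). Tested per gene, none of these differences passed after adjustment over all genes (smallest adjusted p 0.999989), with unadjusted p of 0.11, 0.032, 0.014 and 0.081.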

How the results depend on the processing

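Calls of single genes depended on the fit. With cytokines the knockout over wild-type count of 15 called genes became 30 at an unadjusted p below 0.05. It was 0 in limma without a block, after total-count scaling and with a pseudocount of 8. These fits called hardly any gene, with 2, 2 and 2 of all 16319. Untreated, the 2 became 4 at an FDR below 0.1, 18 unadjusted and 0 in those same limma fits, which called 2, 3 and 2 of all genes. With the replicate block, which pairs libraries by sex, limma called 17 with cytokines, among them all 15 of the authors' calls, and 4 untreated. That fit treats libraries of 1 preparation as independent, so its p-values are too small. The same limit may hold for the authors' fit, whose covariates were not given in the sources used here. Leaving out 1 library from it, a check added after seeing the data, gave 12, 7, 9 and 0 genes with cytokines (without the wild-type female, wild-type male, knockout female and knockout male library), and 0 to 1 untreated. The median untreated difference was 0.4744 to 0.7019 without 1 library, the highest without the wild-type male. The count of 14 genes at an unadjusted p below 0.05 in the knockout response compares with 0 adjusted, and 3 with 0 for the interaction. Of 156 gene and comparison results, 136 kept direction and side of the threshold and 17 lost their call in limma without a block, and in the block fit 147 kept both, 5 gained and 1 lost it. The other 3, all near 0 and uncalled, changed sign in every limma fit. The wild-type response went from 0.0061 to -0.084 (both block settings), -0.0679 (total count) and -0.0496 (pseudocount 8) for Spi1 and from -0.0099 to 0.0121, 0.028 and 0.014 for Lck. The knockout response of C1qa went from 0.0004 to -0.009, -0.0114 and -0.0088. The median wild-type response, 0.0781, was -0.056 without the treated wild-type female library.

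Male minus female differences over 13776 autosomal genes correlated between the untreated and treated libraries of a genotype (r 0.739 in knockout, 0.737 in wild type), and less between genotypes (0.446 and 0.479), as a hint from the data that libraries of a sex belong together. The labels' replicate numbers could not be tied to the recovered libraries. Few reads limit Tcf7, Rac2 and Il2rg, whose wild-type libraries hold 6 to 19 reads.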
